A study of Nothobranchius furzeri with 2 samples.

Results

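Livers of female turquoise killifish (Nothobranchius furzeri, strain GRZ), a fish that matures within weeks and has a very short life span, were compared between 2 ages and 2 treatments. The question here was whether the effect of removing the germ cells differed with age, and it was put to the 20 female liver libraries among the 80 libraries of the series, 1 library per fish. The 4 groups held 5 libraries each: young (1.5 months) control, young germ cell–removed, old (3 months) control and old germ cell–removed. Germ cells were removed with an antisense morpholino against dnd, injected into the fertilized egg. Control eggs received a standard morpholino, so all 20 fish had been injected, and the knockdown itself acts in the embryo. The columns of the count table carry the treatment as control or dnd1, the age and the sex. RNA was read by BRB-seq, in which each fish's cDNA gets its own barcode, the livers are amplified as 1 pool, and molecules are counted at the 3′ end by unique molecular identifiers (UMIs).

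In egg-laying vertebrates the liver of a mature female makes precursors of egg proteins. Under estrogen from the ovary, hepatocytes switch on vitellogenins, the large lipoproteins that become yolk, and, in many fishes, choriogenins, the glycoproteins of the egg envelope. Both are secreted into the blood and taken up or deposited in the ovary. The same cells make clotting factors, protease inhibitors, complement and lipid carriers for the plasma. In fishes such as this one, pancreatic tissue can lie within or against the liver.

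The quantity tested was the interaction, on the log2 scale: the change by germ cell removal at 3 months minus the change at 1.5 months. A positive value means that germ cell–removed livers stood higher against their own controls in old fish than in young fish. It was computed for 5466 genes with at least 20 counts in total over the 20 libraries, from 1 fit of all 4 groups. Library totals ran from 48679 to 180764 counts in young controls, from 28062 to 124113 in old controls, from 163968 to 253459 in young germ cell–removed livers and from 187635 to 256671 in old ones. Depth thus went with treatment, and its part in the interactions was not tested beyond the thinned fit of the closing section. Yolk and envelope transcripts took 24.4 to 35.7% of the counts of a control library and 0.0241 to 0.105% of a germ cell–removed one. Libraries of the same group always differed beyond counting error, in 40 of 40 pairs. The p-values measure the spread between these fish. Differences in the amount of tissue or RNA per fish cannot be told apart from regulation in such bulk samples, nor can fewer cells of a type from less RNA per cell. Levels are given as CPM, which are counts scaled to a common library size after multiplying each library's size by its TMM normalization factor. This factor ran from 0.680 in young control replicate 4 to 1.37 in old control replicate 2, and 1 count was worth 3.68 to 26.4 CPM. Ranges and overlaps in CPM therefore depend on these factors. A gene with the same share of the counts in 2 libraries can differ in CPM. Shares of a library's counts do not use the factors.

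Among the 950 genes with 200 counts or more, the change by germ cell removal mostly had the same sign at both ages. The interaction of 3 of the 5466 genes tested (0.0549%) passed an adjusted p of 0.05 by edgeR's quasi-likelihood test. All 3 interactions were positive. They were OLA.8666, described in the annotation as the precursor of L-SF, ITIH4 (3 OF 3) Nfu_g_1_020919, an inter-alpha-trypsin inhibitor heavy chain of the plasma, and SLC25A25A, a mitochondrial carrier. No negative interaction passed. Without old control replicate 4 the count was 6, and without old germ cell–removed replicate 4 or 5 it was 5. With every library thinned to the smallest total it was 0 of only 1627 genes tested, 85 of them at an unadjusted p under 0.05. In the main fit 341 interactions had an unadjusted p under 0.05 (6.24% of the 5466 genes tested), 239 of them positive (4.37%) and 102 negative (1.87%). Among the 950 genes with 200 counts or more, the changes at both ages had the same sign in 810, and across these genes, which are not independent replicates, Pearson's r was 0.91 and Spearman's rho 0.76. These 2 changes rest on different fish. The 200-count limit sums over all 20 libraries, and most germ cell–removed libraries held more counts than controls. Genes high in germ cell–removed livers at both ages passed it more readily, which favours equal signs. The median interaction over all genes tested was 0.19. With RLE size factors in place of TMM this median was 0.00, and with plain library sizes -0.07.

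**Figure D1:**
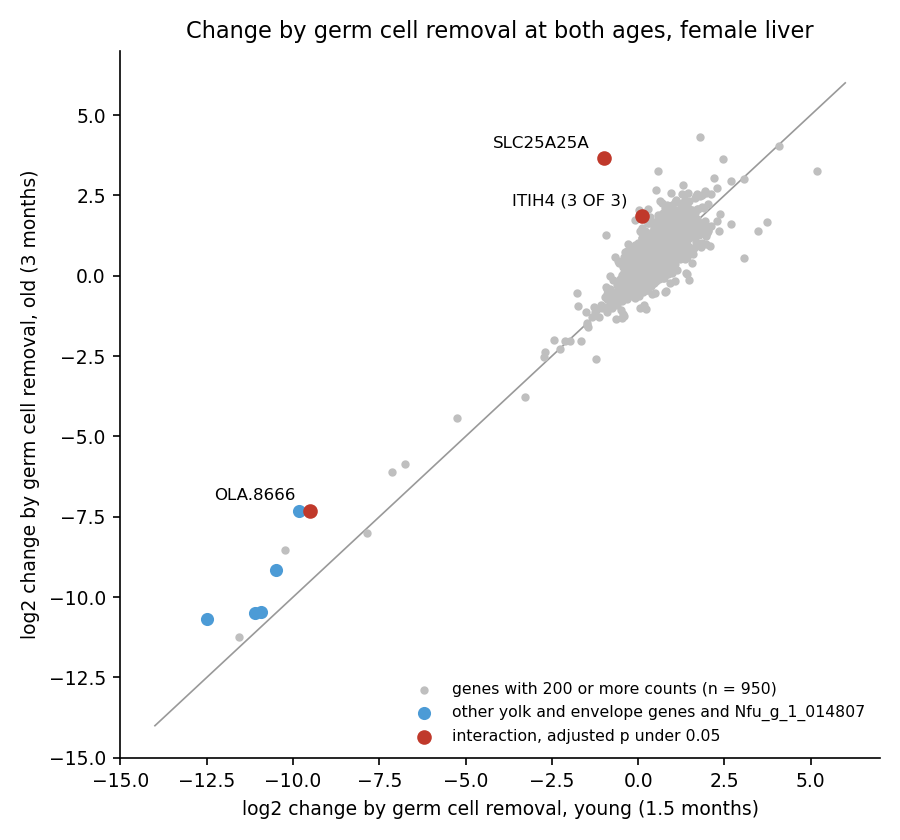
Log2 change by germ cell removal in young (x axis) and old (y axis) female livers for the 950 genes with 200 counts or more, with a line of equal change. Red points mark the 3 genes whose interaction passed, which lie above the line, and blue points mark 4 other yolk and envelope genes and Nfu_g_1_014807 at the lower left.

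The precision differed widely between genes. The median standard error of the interaction was 1.01 over all genes and 0.45 over those with 200 counts or more. For 271 genes the 95% interval lay wholly between -1 and 1, and 242 of these had 200 counts or more. For the other genes the interval reached beyond these bounds, so that an interaction of that size was not left out at this depth. FETUB, a fetuin and the most abundant of the hepatocyte markers, is an example of a well-measured gene with no difference found: it was higher in germ cell–removed livers by 1.41 in young and by 1.41 in old fish, and its interaction was 0.00, with an interval from -0.60 to 0.61. With RLE size factors it was -0.19.

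The interaction of lowest p was in a gene of the egg envelope. L-SF, known from medaka, is a precursor of the inner egg envelope that the liver secretes in spawning females. OLA.8666 (Nfu_g_1_008280; sgr13, 28030121 to 28032374, minus strand, in the authors' GRZ assembly) took 5.76 to 7.47% of all counts in the 10 control libraries. Its level in young controls was 67108, 104690.0, 82339, 109747 and 91894 CPM, and in old controls 63002, 48475, 63558, 61971 and 76648 CPM. Young germ cell–removed livers had 83, 158, 99.3, 135 and 149 CPM, and old ones had 380.3, 677, 321, 210.2 and 378 CPM. The transcript was nearly lost without germ cells at either age. Its level was higher in every old germ cell–removed library than in every young one, while the controls of both ages overlapped. The log2 change by germ cell removal was -9.51 (SE 0.33) in young and -7.31 (SE 0.30) in old fish, and the interaction was 2.20 (SE 0.34, adjusted p = 5.81e-05). With all libraries thinned to the smallest total it was 1.46 (adjusted p = 0.141). As a share of the control mean of the same age, 0.137% ± 0.0355 was found in young and 0.627% ± 0.276 in old germ cell–removed livers (SD, n = 5), 4.57 times as much. The control mean itself was lower in old fish. The log2 change with age was -0.54 (SE 0.22) in controls and 1.66 (SE 0.26) in germ cell–removed livers. Control livers, with far more of the transcript, were amplified in the same pool. Whether stray control reads made up part of such small shares, here and for the genes below, was not tested.

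The neighbouring gene OLA.19919 (Nfu_g_1_007921; sgr13, 28034573 to 28037664, plus strand) encodes the precursor of choriogenin Hminor, another protein of the envelope, and starts on the opposite strand close to OLA.8666. It was at 44915 to 71648 CPM in young and 38337 to 51800.5 CPM in old controls. In germ cell–removed livers it was at 39.1, 17.6, 43.2, 53.1 and 55.9 CPM when young and at 43.9, 151, 83.3, 88.3 and 23.6 CPM when old, and these ranges overlapped. Its interaction of 1.34 (SE 0.41, adjusted p = 0.388) did not pass. What remained was 0.0691% in young and 0.169% in old fish.

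Of the yolk precursors a smaller share remained. OL-VIT1 (Nfu_g_1_002572), annotated as the precursor of vitellogenin 1, was the most abundant transcript of the list and made up 12.1 to 18.7% of the counts of a control library. It stood at 68.3, 109.8, 125, 125 and 137 CPM in young and 53.6, 139.8, 112, 71.5 and 123 CPM in old germ cell–removed livers, with an interaction of 0.47 (SE 0.36, adjusted p = 0.903). Here the share of the control level that was left, 0.0507% in young and 0.0696% in old fish, lay close together and the libraries overlapped. OLA.16036 (Nfu_g_1_002309), annotated as the precursor of vitellogenin II and lying on the same scaffold, had 2, 3, 1, 1 and 0 counts in the young and 4, 4, 5, 4 and 3 counts in the old germ cell–removed livers, against 31512 to 54564 and 26273 to 35734 CPM in the controls. Its interaction was 1.82 (SE 0.56, adjusted p = 0.388). VTG3 (Nfu_g_1_002371), a vitellogenin that lacks the phosvitin part, had 3 counts in total in the 5 young and 3 in the 5 old germ cell–removed libraries, at the floor of 3 counts, and its interaction of 0.61 (SE 1.17) carries little information. A further gene model with the symbol OLA.19919, Nfu_g_1_019450, had 22 counts in total and an interaction of -1.36 (SE 1.44). Of the 10 yolk and envelope rows 6 were tested, 1 was called as positive and none as negative, against 0.0549% and 0% of all genes. Their median interaction was 0.98 against 0.19 over all genes. The choriogenin and L-SF rows, OLA.8666 among them, joined this list after their values were seen. Its call and median are therefore a description only. The abundant genes of the list were lower in old controls, by log2 changes with age from -0.39 for Nfu_g_1_007921 to -0.75 for VTG3. In germ cell–removed livers the change was -0.16 (SE 0.28) for OL-VIT1 and -0.13 (SE 0.81) for VTG3. For Nfu_g_1_007921, OLA.16036 and OLA.8666 it was 0.95 to 1.66. Lower controls are thus part of these interactions, and the changes depend on the TMM factors.

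**Figure D2:**
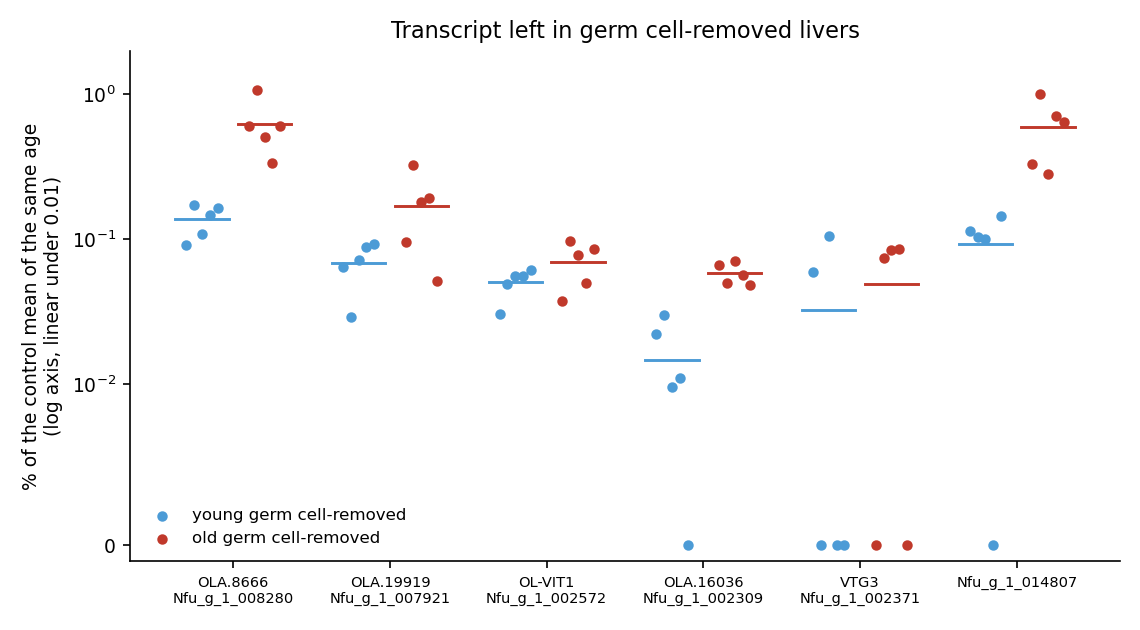
Level in each germ cell–removed liver as a percentage of the mean of the 5 controls of the same age, for the yolk and envelope genes and Nfu_g_1_014807 (log axis, linear under 0.01), with bars at group means. For OLA.8666 the old fish lie at 0.335 to 1.08% and the young at 0.091 to 0.173%, while for OL-VIT1 they overlap.

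Every gene with 200 counts or more whose mean log2 change over both ages was under -4 was also listed. This choice used the same changes that make up the interaction, and control counts made up most of each gene's total. There were 12 such genes. Of these, 10 had counts in all 4 groups, 9 of which had an interaction above the median of all genes, and the median was 0.96 against 0.19 over all genes. The 12 genes were the 5 abundant yolk and envelope genes, Nfu_g_1_014807 and 6 further genes that the table does not name. The set thus includes genes whose values had been seen, and its counts and median are a description only. Nfu_g_1_014807 (uncharacterized protein; scaffold00789, 3585 to 40069) had 1, 1, 1, 0 and 1 counts in the young and 2, 8, 2, 5 and 4 counts in the old germ cell–removed livers, with 121, 658, 227, 631 and 251 and 148, 76, 127, 352 and 342 in the controls. Its interaction of 2.52 (SE 0.64, adjusted p = 0.118) did not pass, and with the filterByExpr filter it did (adjusted p = 0.0399). This was 1 of 14 other settings, over which the value fell as low as 0.13, and it passed in 0 of 20 fits without 1 library. Nfu_g_1_012216 (scaffold01927) was the most abundant of the unnamed genes. It had 1049 ± 170.5 CPM in young and 1711 ± 589.8 CPM in old germ cell–removed livers, and an interaction of 1.01 (SE 0.32, adjusted p = 0.393). A run of neighbours on scaffold00903 was in the group. Of these, Nfu_g_1_007002 had 31 counts in total in the young and 60 in the old germ cell–removed libraries, Nfu_g_1_007004 had 0 and 2, and Nfu_g_1_007003 had no count in either, against 1085 and 780 in the controls. Among the yolk and envelope genes the share of the control level left in old fish ran from 0.049% for VTG3 to 0.627% for OLA.8666.

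ESR1 (Nfu_g_1_018712), the estrogen receptor through which the liver switches on these genes, was lower in germ cell–removed livers at both ages. Young controls had 9, 22, 15, 22 and 9 counts and young germ cell–removed livers 4, 1, 0, 2 and 3. Old controls had 12, 4, 5, 26 and 14 counts and old germ cell–removed livers 4, 9, 0, 1 and 8. In CPM the treatments did not overlap at either age, and the ages did. The interaction was 1.01 (SE 0.68, adjusted p = 0.891). A further gene model of ESR1 next to it held 1 count in all and was not tested. No germ cell or oocyte marker reached 20 counts in total (0 of 9 genes in the table), and DAZL, GDF9 and BMP15 were at 0 in every library. Together the markers took 0 to 0.00205% of the counts in young controls and 0 to 0.00201% in young germ cell–removed livers. In old fish they took 0% in controls and 0 to 0.000897% in germ cell–removed livers.

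The next interaction that passed was in a plasma protease inhibitor. Inter-alpha-trypsin inhibitor heavy chains are secreted by the liver, and some of them are linked to bikunin, the product of AMBP, and to hyaluronan. ITIH4 Nfu_g_1_020919 (sgr10, 25188125 to 25215923, plus strand) was at 586, 945, 1014, 955 and 697 CPM in young controls and at 776, 1195, 583, 1182 and 851 CPM in young germ cell–removed livers. In old fish it was at 792, 317, 754, 633 and 475 CPM in controls and at 2506, 1972, 2227, 2051 and 2022 CPM in germ cell–removed livers. Only the old germ cell–removed livers stood apart, above every library of the other 3 groups. The change by germ cell removal was 0.12 (SE 0.23) in young and 1.85 (SE 0.24) in old fish, and the interaction was 1.73 (SE 0.33, adjusted p = 0.00248). Without young germ cell–removed replicates 1 and 3, which held the most exocrine pancreas transcripts, it was 1.37 with an adjusted p of 0.0597 by the same test. With all libraries thinned it was also 1.37 (adjusted p = 0.141).

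A copy with the same symbol, ITIH4 Nfu_g_1_021170 (sgr10, 25222722 to 25235429, plus strand), lies just downstream on the same strand, and how reads were shared between the pair is uncertain. Its levels were 410.3, 675, 432, 839 and 665 CPM in young controls, 932, 1239, 941, 912 and 1018 CPM in young germ cell–removed livers, 687, 369.6, 777, 1136 and 815 CPM in old controls and 2594, 3558, 3406, 3312 and 2254 CPM in old germ cell–removed livers. All old germ cell–removed livers were again above all other libraries. The interaction was 1.25 (SE 0.32, adjusted p = 0.118) and did not pass. The rest of the family, looked up after these values were seen, was mixed. ITIH1 had 672 ± 176, 946 ± 121, 537 ± 108 and 1432 ± 199 CPM (mean ± SD, n = 5) in young control, young germ cell–removed, old control and old germ cell–removed livers, and an interaction of 0.94 (SE 0.31, adjusted p = 0.531). AMBP Nfu_g_1_006402 had an interaction of 0.66 (SE 0.32, adjusted p = 0.725). The values were negative for ITIH2, at -0.48 (SE 0.60, adjusted p = 0.943) on 139 counts in total, for ITIH5, at -0.75 (SE 0.85, adjusted p = 0.939) on 91 counts, and for a second AMBP model, Nfu_g_1_006543, at -0.30 (SE 1.07, adjusted p = 0.997) on 47 counts. ITIH6, with 13 counts, was not tested. Nfu_g_1_007235 (uncharacterized protein; sgr02, 6955747 to 7036652, minus strand) was also highest in old germ cell–removed livers: 438 to 693 CPM in young controls, 1045 to 1581 CPM in young germ cell–removed livers, 422 to 858 CPM in old controls and 2905 to 3793 CPM in old germ cell–removed livers, with an interaction of 1.24 (SE 0.31, adjusted p = 0.118). Without old control replicate 4 this interaction was 1.37 (adjusted p = 0.0379), and that of ITIH4 Nfu_g_1_021170 was 1.47 (adjusted p = 0.0274). Both genes also passed with DESeq2 (adjusted p = 0.00713 for Nfu_g_1_007235 and 0.0118 for ITIH4) and with the filterByExpr filter of edgeR (adjusted p = 0.00207 and 0.0108). Each passed in 1 of 20 fits without 1 library and in 2 of 14 other settings.

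SLC25A25A (Nfu_g_1_017207; sgr11, 8214781 to 8219638, plus strand) encodes a calcium-regulated carrier that exchanges ATP-Mg for phosphate across the inner mitochondrial membrane. It was rare in 3 of the groups. Its counts were 3, 3, 1, 2 and 2 in young controls, 2, 7, 3, 1 and 1 in young germ cell–removed livers, 0, 0, 1, 3 and 0 in old controls and 26, 63, 76, 16 and 8 in old germ cell–removed livers. In CPM the old germ cell–removed livers reached 37.8 to 316 and lay above both old controls (0 to 26) and young germ cell–removed livers (4.83 to 30.7), but young controls (16.5 to 58.6) overlapped them. The interaction was 4.64 (SE 1.02, adjusted p = 0.0321), and it rests on a change by germ cell removal of -0.99 (SE 0.69) in young and 3.66 (SE 0.63) in old fish. The call was kept in 12 of the 20 fits that left out 1 library. It was lost without young control replicate 1 (adjusted p = 0.0995), young control replicate 2 (adjusted p = 0.133), young control replicate 3 (adjusted p = 0.056), young control replicate 5 (adjusted p = 0.133), old control replicate 1 (adjusted p = 0.0978), old control replicate 2 (adjusted p = 0.121), old control replicate 5 (adjusted p = 0.0881) or old germ cell–removed replicate 3 (adjusted p = 0.0878), with interactions from 4.19 to 5.88 over the 20 fits, and also with RLE size factors (adjusted p = 0.0838) and DESeq2 (adjusted p = 0.065).

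**Figure D3:**
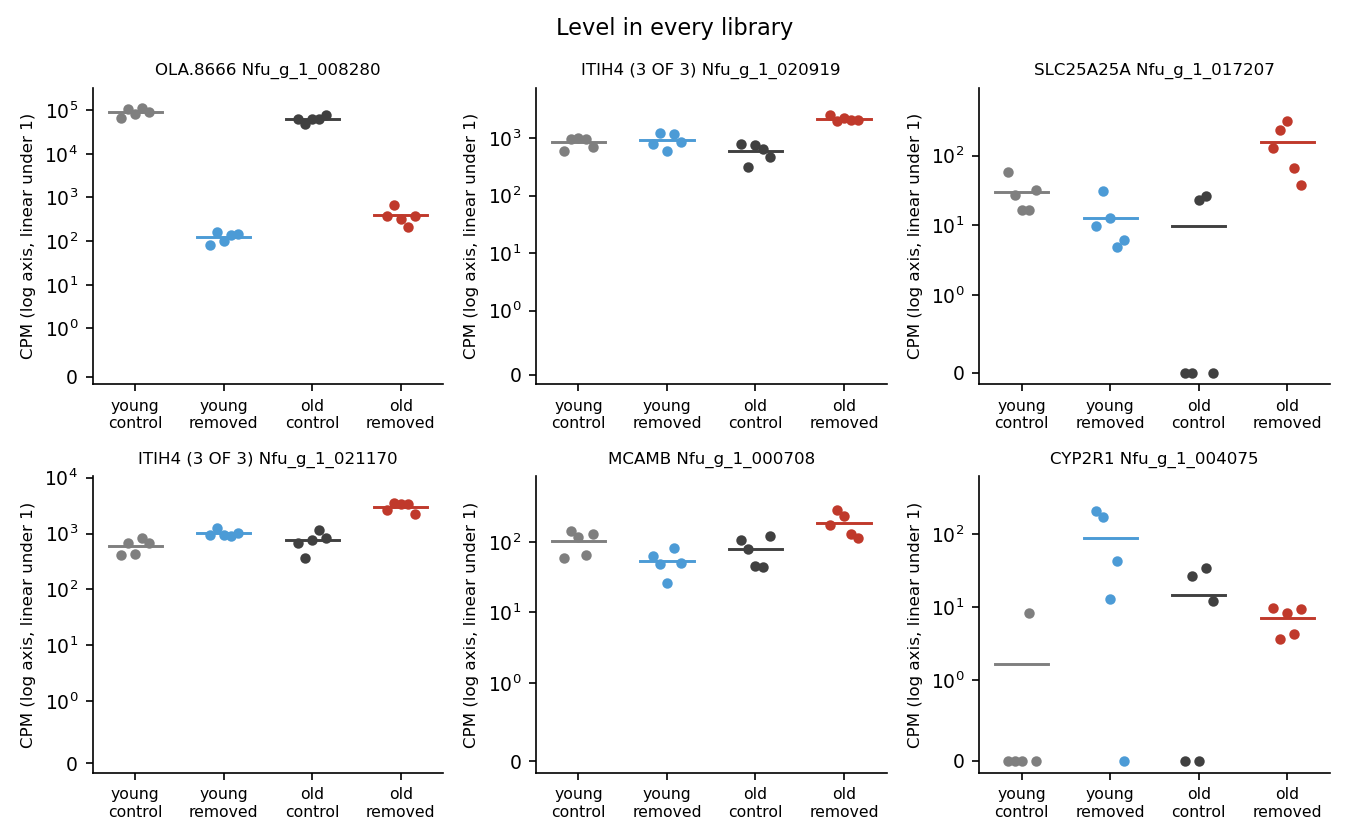
CPM in every library (points; log axis, linear under 1) with group means (bars) for the 3 genes whose interaction passed and for the second ITIH4 copy, MCAMB and CYP2R1. Old germ cell–removed livers are the highest group for both ITIH4 copies, and for CYP2R1 only young germ cell–removed replicates 1 and 2 are above 100 CPM.

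Among the other positive interactions of lowest p, none passed. MCAMB, a cell adhesion molecule of vessels, was at 58.6 to 144 CPM in young controls, 25.9 to 82 CPM in young germ cell–removed livers, 43.4 to 122 CPM in old controls and 113 to 287 CPM in old germ cell–removed livers, with an interaction of 2.20 (SE 0.52, adjusted p = 0.0916). MCAMB passed without young control replicate 4 (adjusted p = 0.0472), young germ cell–removed replicate 4 (adjusted p = 0.0264), old germ cell–removed replicate 4 (adjusted p = 0.0414) or old germ cell–removed replicate 5 (adjusted p = 0.0348). Those were 4 of the 20 fits without 1 library. It passed in 1 of 14 other settings, over which its interaction fell as low as 0.61. TGFB3, a cytokine of the TGF-beta family, had 2, 0, 1, 3 and 0 counts in young and 11, 9, 8, 4 and 6 in old germ cell–removed livers, with 1, 3, 2, 5 and 1 in young and 1, 0, 0, 1 and 1 in old controls, and an interaction of 3.96 (SE 1.01, adjusted p = 0.118). TGFB3 passed in 0 of 20 fits without 1 library and in 1 of 12 other settings, limma voom with sample weights (adjusted p = 0.0391). EMC1, a subunit of the complex that inserts membrane proteins into the endoplasmic reticulum, had an interaction of 1.81 (SE 0.47, adjusted p = 0.118), which passed without old germ cell–removed replicate 5 (adjusted p = 0.0375) and with a minimum of 10 counts (adjusted p = 0.0468), and its old germ cell–removed livers (165 to 612 CPM) were above the young ones (109.8 to 143 CPM). Nfu_g_1_017946, which has no description, had an interaction of 2.18 (SE 0.56, adjusted p = 0.118), and it was 2.39 (adjusted p = 0.0237) without old germ cell–removed replicate 4. With a minimum of 10 counts Nfu_g_1_017946 (adjusted p = 0.0343) and MCAMB (adjusted p = 0.032) passed. EMC1 and Nfu_g_1_017946 each passed in 1 of 20 fits without 1 library and in 1 of 14 other settings.

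No gene showed a negative interaction past the threshold, and the candidates of lowest p were mostly rare. PRDX1, a peroxiredoxin that breaks down peroxides, had 0, 3, 2, 2 and 1 counts in young controls, 17, 11, 30, 12 and 14 in young germ cell–removed livers, 2, 2, 6, 4 and 4 in old controls and 5, 12, 5, 9 and 7 in old germ cell–removed livers. In CPM the young germ cell–removed livers were above both young controls and old germ cell–removed livers, and the interaction was -2.76 (SE 0.71, adjusted p = 0.118). ATP5G3B, which encodes subunit c of the ATP synthase, was better measured. It was at 532, 395, 544, 589 and 646 CPM in young and 141, 254, 196, 189 and 203 CPM in old germ cell–removed livers, ranges that did not overlap, and at 199 to 354 and 146 to 282 CPM in young and old controls. Its interaction was -1.22 (SE 0.37, adjusted p = 0.388), and DESeq2 gave -1.42 (adjusted p = 0.0294) and the filterByExpr filter -1.28 (adjusted p = 0.0399). PPDPFA, a gene expressed in the exocrine pancreas, had an interaction of -1.29 (SE 0.40, adjusted p = 0.388), and of -1.76 (adjusted p = 0.0306) without young germ cell–removed replicates 1 and 3. ATP5G3B passed in 2 and PPDPFA in 1 of 14 other settings, and neither passed in any of the 20 fits without 1 library. WDR13, a WD repeat protein, had at most 5 counts in any library, and Nfu_g_1_021580 had at most 10. AQR, a spliceosomal helicase, Nfu_g_1_011289 and Nfu_g_1_001660 had no count in any young control, so no fold change is given for them.

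CYP2R1 (Nfu_g_1_004075; sgr07, 17327959 to 17331876, plus strand), the hydroxylase that makes 25-hydroxyvitamin D, is one of the genes the study followed. Its counts were 0, 0, 0, 1 and 0 in young controls, 43, 39, 3, 9 and 0 in young germ cell–removed livers, 0, 1, 0, 4 and 1 in old controls and 2, 1, 2, 1 and 2 in old germ cell–removed livers. Replicates 1 and 2 held most counts of the young germ cell–removed group, and replicate 5 held none, so that all 4 groups overlapped in CPM. The fitted interaction was -6.02 (SE 1.57, adjusted p = 0.118), and its size depends on groups with almost no counts. It passed without young germ cell–removed replicate 3 (adjusted p = 0.0441) or replicate 5 (adjusted p = 0.0375). Those were 2 of 20 fits without 1 library, and CYP2R1 passed in 3 of 12 other settings. CYP24A1, which inactivates vitamin D, varied widely between fish: 48.8, 694, 108, 738 and 1434 CPM in young and 2101, 3579.7, 1778, 219 and 907 CPM in old germ cell–removed livers, against 173 to 503 and 158 to 709 CPM in controls, with an interaction of 0.88 (SE 0.62, adjusted p = 0.895).

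Clotting factors are made by the liver, and no member of this list passed. Of 30 genes on the list, 22 were tested and none was called in either direction, where 0.0549% of all genes were called. At that rate a list of this size would mostly hold no call. The absence of calls here and in the lists below thus says little about their members. Their median interaction was 0.53 against 0.19 over all genes, and 19 of the 22 were above the median of all genes. The median change by germ cell removal was 0.73 in young and 1.38 in old fish. At an unadjusted p under 0.05 there were 5 positive and 0 negative interactions among the 22, where all genes had 4.37% and 1.87%. Of the 22, 19 had 200 counts or more, against 950 of all 5466 genes, so this comparison is not matched for depth. F5, a cofactor of thrombin formation, was at 317, 426, 289, 352 and 366 CPM in young and 609, 688, 699, 631 and 458 CPM in old germ cell–removed livers, which did not overlap, and at 176 to 266 and 79.2 to 274 CPM in the controls. Its interaction was 1.23 (SE 0.38, adjusted p = 0.393). The fibrinogen chains, which form the clot, were the most abundant members. FGB had 2777 ± 551, 6937 ± 1158, 3702 ± 1215 and 14715 ± 2132 CPM (SD, n = 5) in young control, young germ cell–removed, old control and old germ cell–removed livers, and an interaction of 0.66 (SE 0.30, adjusted p = 0.701). For FGG it was 0.52 (SE 0.31, adjusted p = 0.876) and for FGA Nfu_g_1_019160 0.55 (SE 0.31, adjusted p = 0.869). A longer FGA model that overlaps the latter, Nfu_g_1_019236, had 0.10 (SE 0.46), and -0.12 with RLE size factors. F2, prothrombin, was the only member with a negative value, -0.20 (SE 0.37).

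Other lists of secreted proteins had medians nearer that of all genes. Complement had 20 of 27 genes tested, none called, and a median interaction of 0.30, with C8A, a subunit of the membrane attack complex, at 0.91 (SE 0.33, adjusted p = 0.603). Plasma transport proteins and apolipoproteins had 37 of 41 genes tested and a median of 0.28. In this list 1 gene was called as positive (the ITIH4 gene above) and 0 as negative, against 0.0549% and 0% of all genes. CP, the copper-carrying ferroxidase of plasma, was at 1621 to 2319 CPM in young and 3043 to 3989 CPM in old germ cell–removed livers and had an interaction of 0.69 (SE 0.30, adjusted p = 0.667). AHSG, a fetuin, was at 33717 to 43798 CPM in young and 9378 to 22847 CPM in old germ cell–removed livers. Controls were at 7658 to 12142 CPM when young and 3018 to 8419 CPM when old. Its log2 change with age was -0.82 (SE 0.23) in controls and -1.45 (SE 0.23) in germ cell–removed livers. The interaction of AHSG was -0.63 (SE 0.32, adjusted p = 0.822). Acute phase, innate immune and interferon genes had 13 of 25 tested, none called and a median of -0.02.

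In lipid metabolism no gene was called. Synthesis of fatty acids and triglycerides had a median interaction of 0.57 over 20 genes tested of 43. ACACA, which makes malonyl-CoA, was at 83.8 ± 39.6, 191 ± 79.4, 78.2 ± 50.5 and 271 ± 49.6 CPM in young control, young germ cell–removed, old control and old germ cell–removed livers, with an interaction of 0.76 (SE 0.51, adjusted p = 0.891). SCD, the stearoyl-CoA desaturase, was at 69.1 ± 45, 197 ± 68.4, 28.3 ± 16.9 and 47.4 ± 19.9 CPM in the same order, with an interaction of -0.84 (SE 0.67, adjusted p = 0.903). For DGAT2, which completes triglycerides, the interaction was 0.33 (SE 0.64, adjusted p = 0.977), with an interval from -0.94 to 1.60. Cholesterol synthesis and uptake had a median of 0.34 over 19 genes of 28, and VLDLR, a lipoprotein receptor, was at 864, 1375, 872, 1004 and 1316 CPM in young and 3296, 3149, 2706, 2173 and 2344 CPM in old germ cell–removed livers, ranges that did not overlap, with an interaction of 0.96 (SE 0.32, adjusted p = 0.516). Fatty acid oxidation and ketone bodies had a median of 0.02 over 27 genes of 35, with OXCT1A, which breaks down ketone bodies, at -1.27 (SE 0.44, adjusted p = 0.561).

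Sugar and amino acid pathways had medians close to that of all genes. Gluconeogenesis, glycolysis and glycogen had a median of 0.19 over 28 genes of 46, with SLC2A2, the glucose transporter of hepatocytes, at 0.93 (SE 0.37, adjusted p = 0.657). Amino acid breakdown and one-carbon metabolism had a median of 0.25 over 52 genes of 67. FAH, the last enzyme of tyrosine breakdown, was at 322, 430.4, 371, 318 and 416 CPM in young and 868, 684, 724, 639 and 496 CPM in old germ cell–removed livers, which did not overlap, and its interaction was 1.21 (SE 0.35, adjusted p = 0.318). FAH passed in 0 of 20 fits without 1 library and in 1 of 14 other settings, the filterByExpr filter (adjusted p = 0.0399). Oxidative phosphorylation, the pathway of ATP5G3B, had a median of -0.16 over 67 genes of 75, and 14 of its genes were above the median of all genes. At an unadjusted p under 0.05 it had 2 positive and 4 negative interactions among the 67, where all genes had 4.37% and 1.87%. No gene of these lists was called in either direction.

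The growth hormone and IGF axis had a median interaction of 0.64 over 14 of 34 genes and no call. IGF1, the growth factor the liver sends to the body, had 0, 1, 0, 0 and 1 counts in young controls, 1, 1, 2, 1 and 3 in young germ cell–removed livers, 0, 0, 0, 1 and 0 in old controls and 1, 2, 6, 2 and 5 in old germ cell–removed livers. At this depth its interaction, 1.36 (SE 1.64), had an interval from -1.91 to 4.64, so a difference between the ages was not detectable. Other genes of the axis were measured better. IGFBP2B had an interaction of 0.34 (SE 0.36), IGFALS, the acid-labile subunit, 0.69 (SE 0.51), and IGF2B, a growth factor, -1.06 (SE 0.46, adjusted p = 0.667).

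The remaining lists held no called gene in either direction. Nuclear receptors and steroid metabolism had a median of 0.55 over 22 of 50 genes, and FOXA3, a hepatocyte transcription factor, had an interaction of 1.70 (SE 0.56, adjusted p = 0.516). Antioxidant and glutathione genes had a median of 0.03 over 25 of 37 genes, and catalase (CAT) had 0.90 (SE 0.35, adjusted p = 0.657), opposite in sign to PRDX1. Genes of the circadian clock had a median of 0.47 over 12 of 33, those of senescence and DNA damage 0.53 over 14 of 22, those of the cell cycle and DNA replication 0.46 over 19 of 64, and immediate early and heat shock genes 0.28 over 23 of 46. Members with 200 counts or more numbered 2, 1, 0 and 5 in the same order. All these medians, relative to that of all genes, changed sign between settings. For protein folding and stress in the endoplasmic reticulum the median was 0.07 over 48 of 68, for the proteasome 0.16 over 37 of 56, for the cytosolic ribosome 0.30 over 79 of 80 and for the extracellular matrix -0.21 over 19 of 42. A cdkn2ab gene, part of the study's panels, was not found under that symbol in the table.

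Counted the same way at an unadjusted p under 0.05, where all genes had 4.37% positive and 1.87% negative, the other lists ran as follows. Positive interactions numbered 2 of 13 for hepatocyte markers, 3 of 6 for endocrine pancreas markers, 3 of 6 for yolk and envelope genes, 3 of 20 for complement, 6 of 37 for plasma transport proteins, 1 of 19 for cholesterol genes, 3 of 28 for sugar metabolism, 5 of 52 for amino acid breakdown, 4 of 48 for the endoplasmic reticulum, 2 of 12 for the circadian clock, 1 of 19 for the cell cycle, 1 of 22 for nuclear receptors, 3 of 25 for antioxidant genes, 1 of 79 for the ribosome and 1 of 37 for proteasome. Negative interactions numbered 1 of 5 for immune markers, 2 of 27 for fatty acid oxidation, 1 of 52 for amino acid breakdown, 1 of 48 for the endoplasmic reticulum, 1 of 14 for the growth hormone axis, 1 of 19 for the cell cycle, 1 of 22 for nuclear receptors, 2 of 25 for antioxidant genes and 1 of 37 for proteasome. The lists not given here or above had none in that direction. The rates over all genes are not matched to the lists for depth. With the filterByExpr filter 151 of 1397 genes had an unadjusted p under 0.05 by edgeR's test, against 341 of 5466 in the main fit. Several lists share genes, the yolk and envelope list holds rows added after their values were seen, and these counts are a description of the lists and no test of them.

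**Figure D4:**
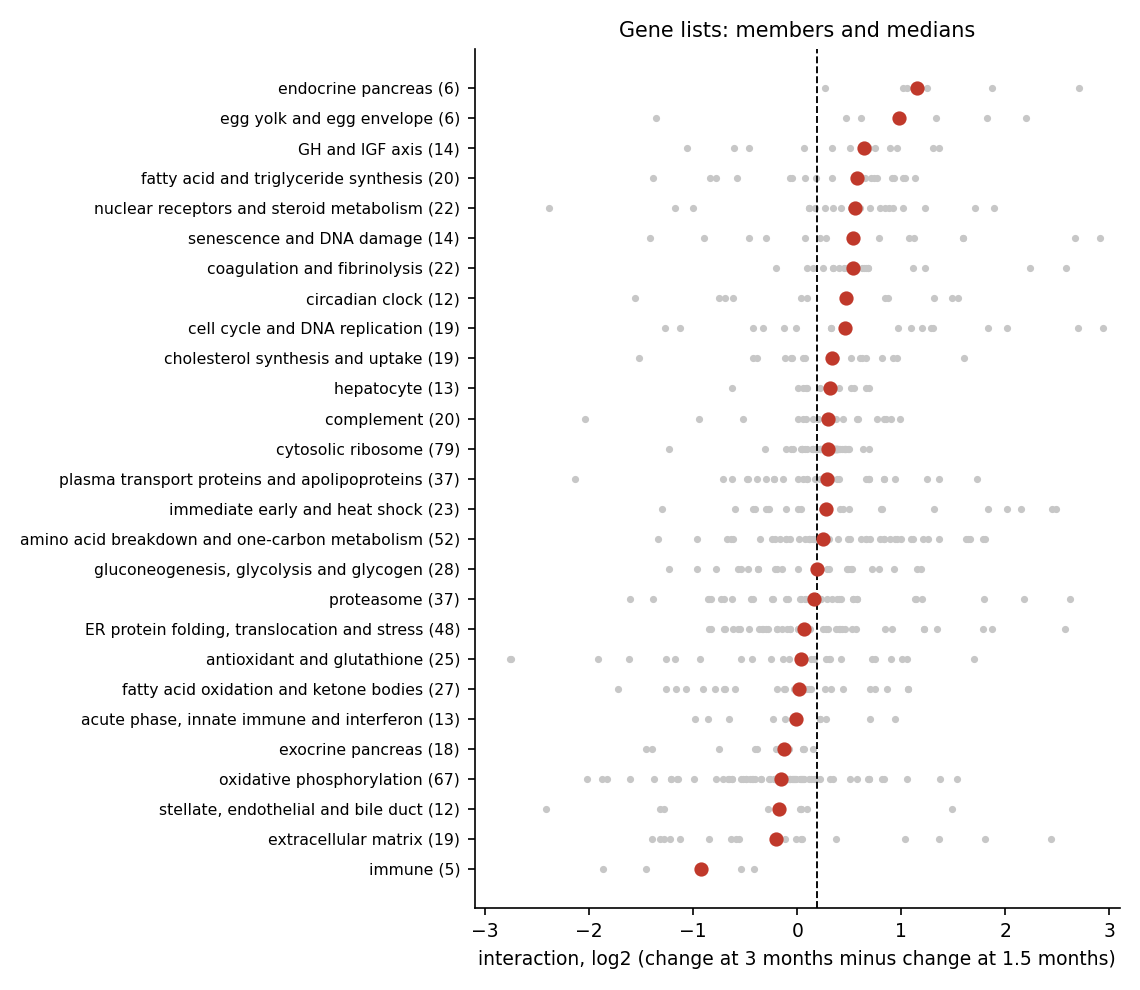
Interaction of each tested member (grey) and the list median (red) for the 27 lists with 5 or more tested genes, with the number tested in brackets and a dashed line at the median of all genes, 0.19; 8 members beyond 3 in either direction are not drawn. Endocrine pancreas and yolk and envelope genes lie farthest to the right and immune markers, with 5 genes, farthest to the left.

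Cell type markers were used to see what else the liver pieces held. Yolk and envelope transcripts took 24.4 to 35.7% of the counts of a control library, which lowers every other share there. Shares of markers are therefore not directly comparable between treatments. Hepatocyte markers made up 4.51 to 5.64% of the counts in young controls, 17.1 to 22.6% in young germ cell–removed livers, 4.19 to 6.65% in old controls and 17.1 to 19.3% in old germ cell–removed livers, so every library held hepatocyte transcripts. All 13 were tested, none was called, and the median interaction was 0.31. Exocrine pancreas markers, the digestive enzymes, made up 2.73 to 5.56%, 4.23 to 15.8%, 1.21 to 3.17% and 1.61 to 6.47% of the counts in the same order. Young germ cell–removed replicates 1 and 3 were the highest. In young control replicates 3 and 5 exocrine markers took more counts than hepatocyte markers (5.56 against 4.51% and 5.37 against 4.57%), so these samples also held pancreas. TRY, trypsin, was the most abundant member, and its interaction was -0.12 (SE 0.40), or 0.50 without these replicates. None of the 18 tested members of 21 was called, and the median was -0.13. The share of exocrine pancreas moved with the groups, and its part in the interactions was not tested beyond the fit without replicates 1 and 3. In that fit OLA.8666 had an interaction of 1.81 (adjusted p = 0.0058) and SLC25A25A one of 4.37 (adjusted p = 0.0597).

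Endocrine pancreas markers, mainly islet hormones, took their highest shares in old germ cell–removed livers. They made up 0.0288 to 0.048% of the counts in young controls, 0.0781 to 0.133% in young germ cell–removed livers, 0.0091 to 0.101% in old controls and 0.146 to 0.385% in old germ cell–removed livers. INS, insulin, was at 156, 396, 299, 346 and 227 CPM in young controls and 439, 470.0, 721, 699.7 and 416 CPM in young germ cell–removed livers. In old fish it was at 528, 528, 114, 234 and 60.8 CPM in controls and 1038, 1530.5, 953, 631 and 1200.2 CPM in germ cell–removed livers. The interaction was 1.05 (SE 0.42, adjusted p = 0.657) and did not pass. SST1.1, a somatostatin, had 1.25 (SE 0.57, adjusted p = 0.701), PCSK2, the convertase that matures islet hormones, had 2.70 (SE 1.06, adjusted p = 0.657), and GCGA, glucagon, had 0.27 (SE 0.57, adjusted p = 0.986). Of 10 markers 6 were tested, none was called, all 6 were above the median of all genes, and their median was 1.15. IAPP and PYYA were at 0 in every library. In young fish the share was also above the controls without overlap, but yolk and envelope transcripts lower the control shares. Whether the shares would overlap with those transcripts set aside was not tested. In old germ cell–removed replicates 1 to 5 the share was 0.222, 0.385, 0.207, 0.146 and 0.312%. The part of endocrine pancreas in the interactions was not tested.

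Markers of other cells were scarce. Immune markers made up 0.00789 to 0.0994% of the counts of a library and red cell markers 0.00264 to 0.0357%, and 5 of 13 and 3 of 6 genes were tested. Muscle markers were at 0 to 0.00935%, with 1 of 10 genes tested. Fat cell markers were at 0.00395 to 0.0325%, with 3 of 3 tested. Stellate, endothelial and bile duct markers were at 0.0523 to 0.306%, with 12 of 13 tested. Against 0.19 over all genes, the median interaction was -0.18 for these, -0.93 for immune markers (0 of 5 positive), -1.29 for red cell markers (0 of 3 positive) and -1.28 for fat cell markers (1 of 3 positive). The last median is the value of PLIN1 (SE 0.91), with 61 counts in total. CIDEC, the only fat cell marker with 200 counts or more, had 0.91 (SE 0.49). Of the immune and red cell markers tested, also only 1 each had 200 counts or more. Over all genes 3250 of 5466 interactions were positive. The muscle marker tested, MYLPFA, had no count in any control library, so no fold change is given for it. CD68, a marker of macrophages and the most abundant of the immune list, had an interaction of -0.93 (SE 0.44, adjusted p = 0.716). None of these markers was called in either direction.

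**Figure D5:**
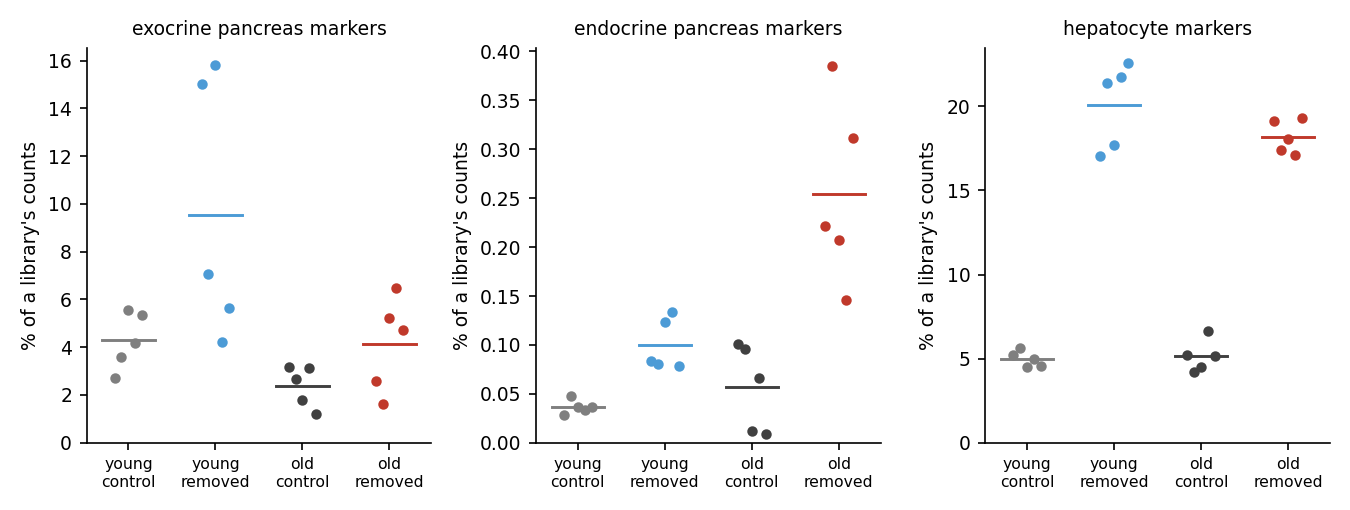
Share of each library's counts (points, in percent) taken by exocrine pancreas, endocrine pancreas and hepatocyte markers, with group means (bars). Young germ cell–removed replicates 1 and 3 lie above 15% for exocrine markers, and the old germ cell–removed livers, at 0.146 to 0.385%, lie above all other libraries for endocrine markers. Control shares are lowered by yolk and envelope transcripts.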

How the data were processed

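Per the labels and the study's methods, the authors pooled barcoded liver cDNA, demultiplexed the reads, handled barcodes with UMI-tools, trimmed with Trim Galore 0.6.7, mapped to the GRZ assembly with HISAT2 2.2.1 and counted with featureCounts 2.0.1. The deposited values are raw UMI counts per gene, without normalization. Column names mark the germ cell–removed libraries as down sampled to a fixed number of reads and the controls as not down sampled, whereas the methods describe sampling for female liver as a whole. The 60 other library columns were not used here.

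The 18529 annotated rows entered with edgeR 4.0.16 in R 4.3.3: TMM, a minimum of 20 counts over the 20 libraries, a 4-group model, the default quasi-likelihood fit, and Benjamini-Hochberg adjustment over all 5466 genes, with a threshold of 0.05. The change at each age comes from the same fit and carries no call. Standard errors are the log2 value divided by the root of F. A count of 3 was the floor of detection, for counting error only. The fit was tested on simulated data.

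Named were the 10 genes of lowest p in each direction, the study's panel genes, ESR1, yolk genes, and in each list called genes or those of lowest p and highest count, some given only by list. A gene of the negative direction is not reported here. Genes with matching descriptions (choriogenins, L-SF), the ITIH family, SST1.1 and GCGA were added after their values were seen. The members and lists were chosen with earlier results of these data known. Alternatives were run with DESeq2 1.42.0 and limma 3.58.1 among others. The study's morpholino and gene sequences were not used here.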

Additional observations from a re-analysis of the deposited data

Results flagged for a closer look

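The change by germ cell removal differed between old and young fish, by the test of the difference itself, for 3 genes. The differences, old minus young on the log2 scale, were 2.20 for OLA.8666, 1.73 for ITIH4 Nfu_g_1_020919 and 4.64 for SLC25A25A.

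In 3 of 173 combinations of a named gene and a group of 5 libraries, 1 library lay far from the other 4; chance flags about 1 in 20 such groups. CP was at 815 CPM in young control replicate 4, with the next at 606 CPM. C8A was at 707 CPM in old germ cell–removed replicate 1, with the next at 611 CPM. CYP24A1 was at 503 CPM in young control replicate 5, with the next at 233 CPM.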

How the results depend on the processing

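The count of 3 genes, of 5466 tested, was 5 with DESeq2's Wald test and 5 with limma voom and sample weights, both also over 5466. It was 8 of 7349 genes with a minimum of 10 counts and 7 of 1397 with filterByExpr. With every library thinned to the smallest total it was 0 of 1627, where 85 genes had an unadjusted p under 0.05 by edgeR's test. The last 3 counts thus rest on other numbers of tested genes. Leaving out 1 library gave 2 to 6 genes; it was 6 without old control replicate 4, and 5 without old germ cell–removed replicate 4 and also without replicate 5. OLA.8666 passed in 20 of 20 fits without 1 library and in 12 of 13 other settings (interaction 1.46 to 2.25); the setting without genes over 1% of a library leaves it out. ITIH4 Nfu_g_1_020919 passed in 20 of 20 and 12 of 14, and SLC25A25A in 12 of 20 and 6 of 14. Fitted as blocks of equal replicate number, 4 genes passed, CYP2R1 being the additional one (-6.00). Same-numbered libraries correlated from -0.41 to 0.26 in their deviations from group means, over 0.1 in 3 of 30 pairs, and 6 of 30 correlated best with their own number. The numbers were therefore not used as pairs in the main fit. A batch shared by number that touches few genes would not show in these correlations. CYP2R1 also passed with a minimum of 10 counts and of 1 count. The planned legacy fit is the default of edgeR 4.0.16 and so the fit reported; the fit without that option, chosen after seeing the data like the 2 settings without pairs of libraries, gave 2 genes.

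Of 1905 pairs of a named gene and a setting, 1817 kept direction and side of the threshold, 19 lost the call and 26 gained one. The sign turned in 43, always in genes that had not passed; the cause was not tested. FETUB was -0.19 with RLE, -0.059 with TMMwsp, -0.26 with plain library sizes, -0.19 with DESeq2, -0.040 with filterByExpr, -0.019 with a minimum of 1 count, -0.33 thinned, -0.22 without young germ cell–removed replicates 1 and 3 and -0.23 without old control replicates 2 and 3. FGA Nfu_g_1_019236 was -0.12 with RLE, -0.19 with plain library sizes, -0.12 with DESeq2, -0.33 thinned and -0.27 without young germ cell–removed replicates 1 and 3, where TRY was 0.50. Thinned, ESR1 was -0.37, DGAT2 -0.030 and FOXA3 -0.17. Without 1 library FETUB ran from -0.15 to 0.20, FGA Nfu_g_1_019236 from -0.11 to 0.31, TRY from -0.30 to 0.14, DGAT2 from -0.041 to 1.37, GCGA from -0.089 to 1.57 and ITIH2 from -0.74 to 0.11. GCGA was -0.14 without old control replicates 2 and 3. List medians, relative to the median of all genes, moved by less than the spread between replicates in 934 of 1014 cases. Coagulation stayed between 0.15 and 0.50, endocrine pancreas between 0.65 and 1.36 and oxidative phosphorylation between -0.43 and -0.26. Other lists changed sign. Among them the circadian clock ran from -0.38 to 0.94, senescence and DNA damage from -0.22 to 0.45 and the cell cycle from -0.15 to 1.21. Immediate early and heat shock genes ran from -0.35 to 0.37 and fat cell markers from -2.02 to 0.72. The yolk and envelope list was at -0.57 without genes over 1% of a library. That setting left only VTG3, with 3 counts in each germ cell–removed group, and Nfu_g_1_019450, with 22 counts in total.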
